A study of Mus musculus with 5 samples.

Results

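The 46 genes described here act in DNA replication and cell division, and all 46 were found among the 27998 genes of the kidney single-cell libraries. They were chosen by name and fall into 25 mitosis genes, 20 S phase genes and Stmn1, which encodes the microtubule regulator stathmin. The tissue was kidney of the C57BL/6j strain, and both groups shared a lupus model made with pristane, an oil that provokes autoantibodies. FMT libraries (n = 3) came after transfer of fecal microbiota with MRL/MpJ mice as donors, and saline libraries (n = 2) after saline alone. Each library is called a mouse here, although the labels number replicates and do not say whether animals were pooled; age and sex are not given in the sources used here. The title codes start with B in the FMT group and with C or D in the saline group, with no meaning given. The labels name renal tubular epithelial cells, while the matrices also held T cells, B cells, plasma cells, natural killer (NK) cells, granulocytes and other myeloid cells.

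A dividing cell first copies its DNA in S phase and then separates the copies in mitosis. The S phase genes include the MCM helicase subunits that unwind DNA, the sliding clamp Pcna, and Tyms, Tk1, Rrm1 and Rrm2, which supply nucleotides. The mitosis genes include the kinase Cdk1 and its cyclins, the Aurora and Plk1 kinases, spindle motors of the Kif family, kinetochore proteins such as Cenpe and Spc25, and Mki67, the gene of the Ki-67 proliferation antigen. In adult kidney, tubule cells are mostly quiescent, and immune cells that enter the tissue may divide.

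The promoters of these genes are known to carry a few short motifs that bind cell cycle regulators, and those of 5 members are shown because these genes recur in the results. Sequences were 300 bases around the start site in RefSeq (GRCm38.p6), and 41 promoters of 38 members were matched. Members not matched were Tpx2, Mcm4, Ccne2, Aurkb, Stmn1, Kif20a, Gins2 and Ccna2. Motifs were searched on both strands as CCAAT, as the cell cycle genes homology region (CHR, spelled TTTGAA in one form and TTCGAA in the other) and as an E2F site, whose spellings were TTCCCGC in one form, TTCGCGC in another, TTGCCGC in another and TTGGCGC in the last. Capitals mark every match, and overlapping matches run together. The promoters of Ccnb2 (chr9:70421505-70421804, minus strand) and Cdc20 (chr4:118437294-118437593, minus strand), a mitotic cyclin and an activator of the anaphase-promoting complex, stand for the mitosis genes. That of Mcm5 (chr8:75109259-75109558, plus strand) stands for the MCM genes. Spc25 (chr2:69206164-69206463, minus strand) and Tyms (chr5:30073576-30073875, minus strand) are shown because their levels set them apart from the other members.
Ccnb2: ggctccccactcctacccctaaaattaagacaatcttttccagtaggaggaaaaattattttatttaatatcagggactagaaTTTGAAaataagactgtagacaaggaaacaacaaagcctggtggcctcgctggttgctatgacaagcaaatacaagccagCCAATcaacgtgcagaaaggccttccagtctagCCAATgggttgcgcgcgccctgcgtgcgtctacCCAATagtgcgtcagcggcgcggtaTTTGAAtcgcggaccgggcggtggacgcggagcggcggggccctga
Cdc20: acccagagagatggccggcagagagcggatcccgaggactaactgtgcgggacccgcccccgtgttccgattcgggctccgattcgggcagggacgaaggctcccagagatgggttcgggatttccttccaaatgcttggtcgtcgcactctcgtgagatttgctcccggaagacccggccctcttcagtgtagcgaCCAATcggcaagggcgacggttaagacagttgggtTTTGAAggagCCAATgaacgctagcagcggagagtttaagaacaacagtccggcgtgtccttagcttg
Mcm5: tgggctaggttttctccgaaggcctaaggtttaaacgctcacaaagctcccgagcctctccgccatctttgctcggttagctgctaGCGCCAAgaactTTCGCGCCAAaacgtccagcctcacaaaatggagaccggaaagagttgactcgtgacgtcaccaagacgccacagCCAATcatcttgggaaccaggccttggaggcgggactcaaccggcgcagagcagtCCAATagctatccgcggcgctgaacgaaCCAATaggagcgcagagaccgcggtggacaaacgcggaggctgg
Spc25: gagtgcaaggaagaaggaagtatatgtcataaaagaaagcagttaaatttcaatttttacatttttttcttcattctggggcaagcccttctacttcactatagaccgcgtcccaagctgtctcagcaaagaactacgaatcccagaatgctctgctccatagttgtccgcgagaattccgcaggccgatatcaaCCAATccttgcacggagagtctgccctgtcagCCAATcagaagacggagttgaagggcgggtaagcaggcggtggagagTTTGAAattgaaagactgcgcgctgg
Tyms: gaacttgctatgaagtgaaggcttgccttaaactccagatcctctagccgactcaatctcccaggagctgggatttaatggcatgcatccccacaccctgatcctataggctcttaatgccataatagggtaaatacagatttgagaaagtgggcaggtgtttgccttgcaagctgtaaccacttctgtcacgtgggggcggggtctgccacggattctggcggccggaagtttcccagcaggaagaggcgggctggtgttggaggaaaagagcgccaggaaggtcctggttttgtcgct

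The mitosis promoters mostly held CCAAT together with a CHR, and the S phase promoters more often held an E2F site. Of 22 mitosis promoters, 20 held CCAAT, 18 held a CHR and 4 held an E2F site. Of 19 S phase promoters, 14 held CCAAT, 4 held a CHR and 12 held an E2F site. Among all 32851 promoters of the table, 37.4% held CCAAT, 19.2% a CHR, 9.57% an E2F site and 7.52% both CCAAT and a CHR. The Spc25 promoter had 2 CCAAT and 1 CHR, as the Cdc20 promoter did, and the Tyms promoter had none of the searched letters. A match describes these letters only, and median GC content was 58.3% in mitosis promoters and 52.7% in all promoters.

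The libraries held 15333445 to 45309178 unique molecular identifiers (UMIs, each a counted RNA molecule), and 21708 of 26237 barcodes were kept as cells. Median depth was 3262.5 to 4928 UMIs per cell, and pairs of libraries shared 2 to 8 barcodes. Cells were assigned by single marker genes: Cd3e for T cells, Ms4a1 for B cells, Jchain for plasma cells, S100a8 or Elane for granulocytes, Lyz2 for myeloid cells, Ncr1 for NK cells and Miox for proximal tubule cells. This gave 11252 proximal tubule cells, 1932 T cells, 1696 B cells, 1039 myeloid cells, 407 granulocytes, 150 NK cells and 109 plasma cells, with 4661 cells in no gate and 462 in several. Markers not used for the gates followed them: the proximal tubule transporter Slc34a1 was at 3166 CPM (UMIs of the gene per 1e+06 UMIs of the class) in proximal tubule cells and 74.0 CPM in T cells, Cd3g at 2.11 CPM and 1237 CPM in the same classes, and Cd79a at 4438 CPM in B cells and 8.58 CPM in T cells. Proximal tubule cells made up 56.4% to 58.0% of kept cells in FMT mice and 42.4% to 43.0% in saline mice.

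The members gave 52208 UMIs in kept cells, and most mitosis genes were read in very few cells. Cells with at least 3 different mitosis genes, Spc25 not counted, numbered 148, or 0.682% of all (exact binomial 95% interval 0.577 to 0.8004%, counting error only). These cells held 73.8% of the UMIs of the 24 mitosis genes, 21.0% of S phase UMIs and 1.59% of all UMIs. They were deep, with a median of 11113.5 UMIs against 3946.5 in the other cells, and 71.6% of them also had at least 3 S phase genes, against 5.43% of the other cells. Such cells are a range of a score, not a cell type: 189 more cells had 2 of the genes and 28 had exactly 3. The genes define the cells, so the values are a description and carry no test.

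For each gene, the share of its UMIs in such cells was taken with the gene itself left out of the definition. It passed 50% for 21 of the 24 mitosis genes and for 6 of the 20 S phase genes. Birc5, which encodes the chromosomal passenger survivin, had 91.6% of its UMIs there, Ccnb2 had 90.8%, Mki67 82.0% and the topoisomerase Top2a 79.0%. Aurka, Plk1, Cenpe, Cdc20 and Ccnb1 lay between 58.2% and 64.3%, Kif20a, Prc1, Cenpf, Nusap1, Aurkb and Kif11 between 70.2% and 77.4%, and Cdk1, Tpx2, Ube2c, Ccna2, Hmmr and Bub1 between 84.2% and 94.8%. The 3 mitosis genes under 50% were Cenpa, the centromeric histone, at 46.5%, the checkpoint kinase Bub1b at 43.5% and the midzone kinesin Kif23 at 29.3%. The 6 S phase genes over 50% were led by 2810417H13Rik, known also as Pclaf, a PCNA-binding factor, at 96.4%, followed by Hist1h1b, Hist1h2ae, the ribonucleotide reductase subunit Rrm2, Uhrf1 and Cdc6.

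The remaining S phase genes were spread over many cells outside this group. Pcna had 8.61% of its UMIs in cells with mitosis genes, Tyms 6.13%, the replication licensing factor Cdt1 7.73% and Stmn1 19.6%. Tk1, Mcm7, Mcm4, Mcm2, Gins2 and Mcm6 lay between 11.2% and 16.7%, and the cyclins Ccne1 and Ccne2 with Mcm3 between 22.6% and 28.0%, with Mcm5 next above them. Rrm2 and Rrm1, the subunits of one enzyme, differed in this respect, with 72.5% and 14.7% of their UMIs in such cells. Hist1h2ae belongs to a family of near-identical histone genes, so reads may be split or shared between copies.

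**Figure D1:**
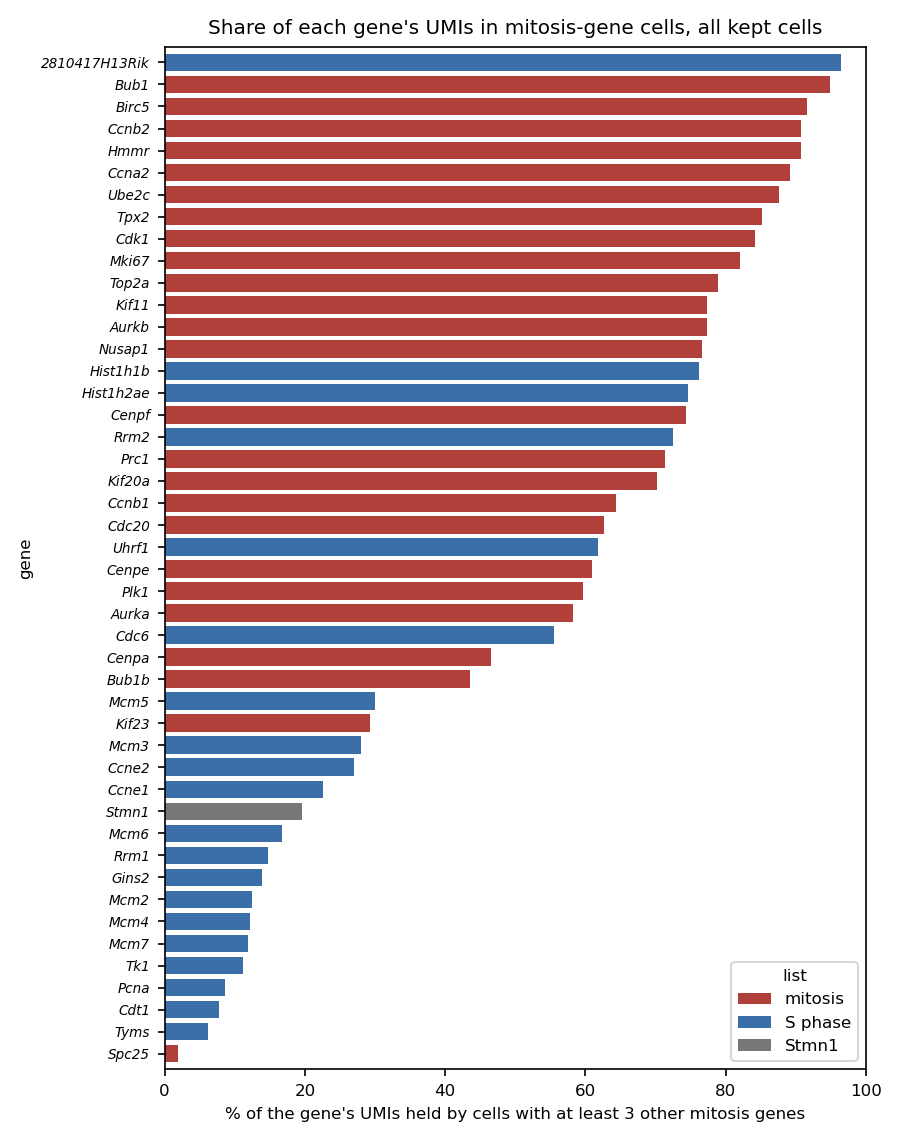
Bars give the percent of each gene's UMIs held by cells with at least 3 other mitosis genes (Spc25 not counted), over all 21708 kept cells, coloured by list. The S phase gene 2810417H13Rik has the highest bar (96.4%), followed by mitosis genes down to Top2a (79.0%), with Hist1h1b, Hist1h2ae and Rrm2 among the next. Tyms (6.13%) and Spc25 (1.86%) close it, and the MCM genes run upward from Mcm7 at 11.9%.

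Cells with mitosis genes were found in every gate, at shares that differed between gates and are first given without thinning. They made up 10.1% of plasma cells (11 of 109), 5.33% of NK cells (8 of 150), 4.67% of granulocytes (19 of 407) and 2.59% of T cells (50 of 1932). In myeloid cells the share was 0.866%, in B cells 0.236% (4 of 1696) and in proximal tubule cells 0.0889% (10 of 11252). Exact binomial 95% intervals without thinning were 1.93 to 3.40% for T cells and 0.0643 to 0.603% for B cells. For proximal tubule cells the interval was 0.0426 to 0.163%, although these cells were deeper (median 5343 UMIs) than T cells (4229) or B cells (2823.5). The intervals hold counting error only, with cells of all mice pooled, and not the spread between mice. Per mouse, the T cell share was 2.22%, 3.65% and 0% in FMT mice and 3.97% and 1.65% in saline mice. Plasma cells were also the deepest gate (median 7162 UMIs). With every cell thinned to 1500 UMIs, the mean share over mice for plasma cells was 6.67 ± 7.64% (SD) in FMT mice and 0% in saline mice. It was 2.32% and 11.3% for NK cells, 0.629% and 2.71% for granulocytes and 1.37% and 1.45% for T cells. Of these gates, plasma cells kept the highest mean in FMT mice but not in saline mice, so their lead cannot be separated from depth.

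By CPM of a gate, 28 of the 46 members were highest in NK cells. Mitosis gene levels there rested on few cells. The 8 of 150 NK cells with mitosis genes held 98.2% of the gate's Mki67 UMIs, 100% of Birc5 and 93.9% of Top2a. They also held 98.8% of its 2810417H13Rik UMIs and 89.2% of Stmn1, but 28.4% of Pcna and 14.3% of Mcm4. Plasma cells were highest for 7, granulocytes for 6, T cells and proximal tubule cells for 2 each, and B cells for 1. Cenpa and the helicase subunit Mcm6 were the members highest in T cells, at 67.1 CPM and 38.6 CPM. Cdt1 was highest in B cells, and Spc25 and Tyms were highest in proximal tubule cells. From the bulk sum of a gate alone, fewer dividing cells and less RNA per cell cannot be told apart.

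**Figure D2:**
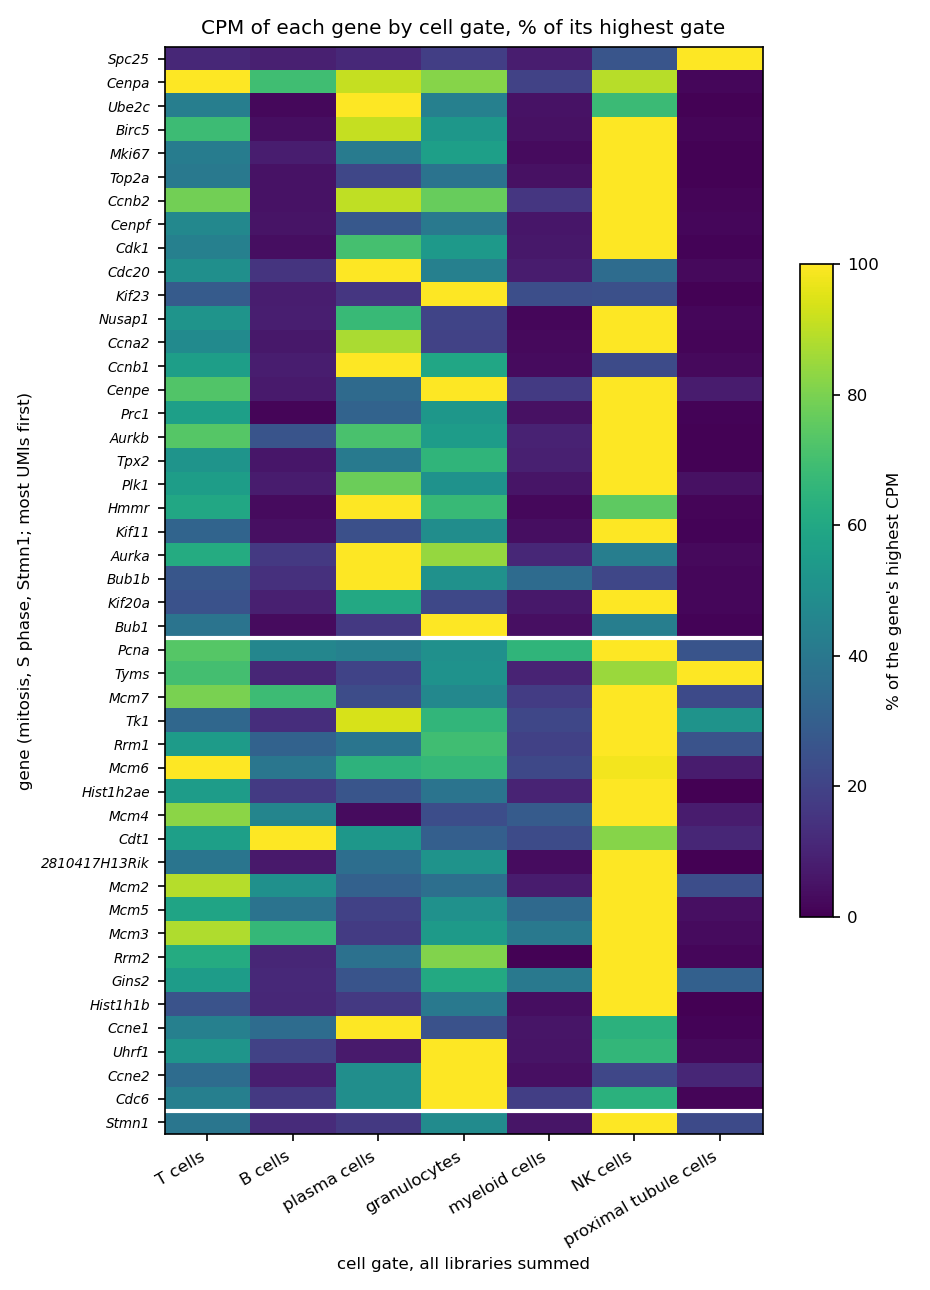
Colour gives the CPM of each of the 46 genes in 7 cell gates, all libraries summed, as a percent of that gene's highest gate, with mitosis genes above, S phase genes below them and Stmn1 last. The NK column is brightest for most genes, and the proximal tubule column is dark apart from Spc25, Tyms, Tk1 and a few S phase genes.

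Spc25 (chr2:69193895-69206194, minus strand, GENCODE M21 on mm10), a subunit of the Ndc80 complex that ties microtubules to kinetochores, had the second most UMIs of all members, and its pattern was unlike the other mitosis genes. Proximal tubule cells held 89.8% of its 7793 UMIs. In these cells it stood at 86.4, 103 and 110 CPM in the FMT mice and at 63.0 and 85.5 CPM in the saline mice. In T cells it stood at 4.61, 17.8 and 3.53 CPM in the FMT mice and at 14.4 and 6.95 CPM in the saline mice. Every mouse was therefore higher in its proximal tubule cells than in its T cells. A UMI of Spc25 was seen in 37.9% of proximal tubule cells, at most 11 UMIs in a cell, against 2.74% of T cells and 2.18% of B cells, at median depths of 5343, 4229 and 2823.5 UMIs. Free RNA of the tubule was present in other cells. In T cells Miox, which the gates keep low there, was at 0.0113 of its proximal level, and Slc34a1 at 0.0234. Spc25 in T cells was at 0.113 of its own proximal level. The 50 T cells with mitosis genes held 73.6% of the T cell UMIs of Spc25, and it stood at 2.86 CPM in the other T cells.

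Proximal tubule and T cells were compared with each mouse as a block, with the edgeR quasi-likelihood test over 11662 genes, a test added after values were seen. Of all genes, 43.7% were called higher in proximal tubule cells and 36.2% lower (Benjamini-Hochberg adjusted p under 0.05). Spc25 was higher by 3.26 ± 0.22 on the log2 scale (SE, adjusted p = 2.41e-11, higher in 5 of 5 mice). The other 12 mitosis genes that passed the low count filter were all lower in proximal tubule cells, as were 15 of 17 S phase genes that passed. Genes can pass this filter through T cells alone, so these counts are a description. Top2a was lower by 6.10 ± 0.36 (log2 difference -6.10) and Mki67 by 5.58 ± 0.27 (log2 difference -5.58), each lower in all 5 mice.

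Spc25 works in a complex with Spc24, Nuf2 and Ndc80, which are not members and were looked up after the Spc25 values had been seen. Spc24 stood at 20.2 CPM in proximal tubule cells (1588 UMIs, 12.2% of cells) and at 16.7 CPM in T cells. Nuf2 and Ndc80 had 4 and 6 UMIs in all proximal tubule cells, or 0.0508 and 0.0761 CPM, against 2.20 and 7.37 CPM in T cells. In proximal tubule cells the subunits thus fell into a pair seen in many cells and a pair that was nearly unseen.

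Tyms, thymidylate synthase (chr5:30058202-30073617, minus strand), was the S phase gene called higher in proximal tubule cells. It stood at 48.8, 52.7 and 49.6 CPM in proximal tubule cells of FMT mice and at 27.6 and 36.2 CPM in those of saline mice. T cells had 28.0, 41.6 and 22.9 CPM in FMT mice and 36.7 and 21.4 CPM in saline mice. The difference of proximal tubule over T cells was 0.58 ± 0.16 (log2, SE, adjusted p = 0.00221, edgeR), and proximal tubule cells were the higher ones in 4 of 5 mice. Tk1, thymidine kinase of the same nucleotide supply, was not called, at 0.55 ± 0.31 (adjusted p = 0.106, higher in 3 of 5 mice).

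The other S phase genes with many UMIs were lower in proximal tubule cells but still read there. Pcna had 28.2 ± 1.23 CPM in proximal tubule cells and 76.2 ± 19.9 CPM in T cells (mean ± SD over 5 mice). The log2 difference was -1.32 ± 0.14 for Pcna, -1.72 ± 0.13 for Mcm7 and -0.93 ± 0.20 for Rrm1, in each case lower in all 5 mice. Stmn1 was less different, at -0.47 ± 0.21 (adjusted p = 0.0419), and was higher in proximal tubule cells of 1 mouse. By contrast the histone genes Hist1h1b and Hist1h2ae were lower by over 7 on the log2 scale (log2 differences -7.63 ± 0.42 and -7.10 ± 0.36).

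**Figure D3:**
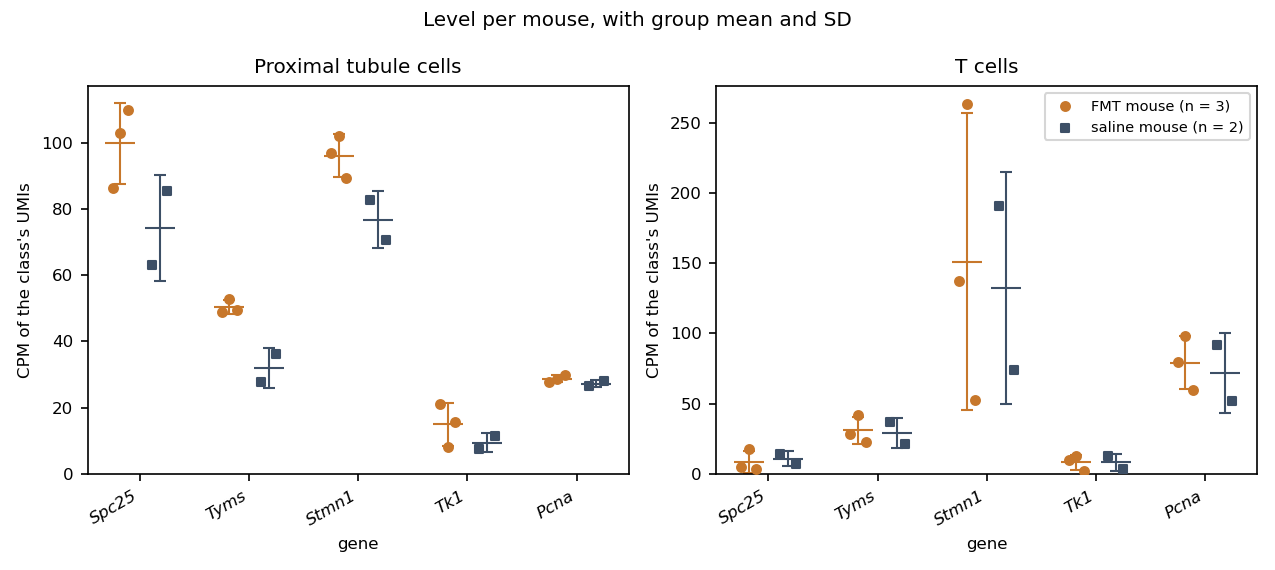
Points are mice (circles FMT, n = 3; squares saline, n = 2), lines are group means with SD, and the vertical axes give CPM in proximal tubule cells (left) and T cells (right) on separate scales. Spc25 lies between 63.0 and 110 CPM in proximal tubule cells and under 18 CPM in T cells, and Stmn1 in T cells lies between 52.9 and 263 CPM within the FMT mice.

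B cells were compared with T cells in the same way over 7874 genes, of which 21.5% were called higher in B cells and 22.2% lower. Of 19 members that passed the filter, Cdt1 was called higher and 13 were called lower. Cdt1 had 37.3, 25.9 and 30.5 CPM in B cells of FMT mice and 29.8 and 35.8 CPM in those of saline mice. It was 0.84 ± 0.18 higher than in T cells on the log2 scale (SE, adjusted p = 0.00102, higher in 5 of 5 mice). The largest fall among members was that of Top2a, at -3.01 ± 0.41, while Cenpa was not called, at -0.40 ± 0.21 (adjusted p = 0.142). A UMI of Cenpa was seen in 12.8% of B cells, 11.9% of T cells and 0.595% of proximal tubule cells, at median depths of 2823.5, 4229 and 5343 UMIs, and a UMI of Mki67 in 0.236% of B cells.

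FMT and saline mice were then compared within each gate, with UMIs summed per mouse, since cells of 1 mouse are not replicates. Over all kept cells edgeR called 0 of 14266 genes (0%), with 2000 at an unadjusted p under 0.05 and 415 called by DESeq2. No member was called by edgeR, 2 were under an unadjusted p of 0.05, and DESeq2 called 2, Tyms and Spc25. Tyms was at 41.3, 43.9 and 39.1 CPM in FMT mice and at 23.6 and 28.4 CPM in saline mice, a difference of 0.75 ± 0.12 (log2, SE, adjusted p = 0.240, edgeR). Spc25 was at 68.4, 75.0 and 81.8 CPM in FMT mice and at 42.6 and 53.5 CPM in saline mice, a difference of 0.72 ± 0.14 (adjusted p = 0.250). The groups did not overlap for either gene. With 3 and 2 mice in random order, a lack of overlap in 1 given direction has a probability of 0.1. No share of all genes without overlap is given, so a lack of overlap is a description only, here and in the gates below. Both genes are the members highest in proximal tubule cells, whose share of cells was higher in FMT mice, and the part of that share was not tested. Within proximal tubule cells alone the differences were 0.68 ± 0.14 for Tyms and 0.45 ± 0.17 for Spc25, neither called. Mki67 had the next smallest p, at -0.84 ± 0.35 (adjusted p = 0.358), with 3.53, 6.05 and 3.51 CPM in FMT mice and 10.5 and 5.65 CPM in saline mice.

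The share of cells with at least 3 mitosis genes overlapped between the groups. With every cell thinned to 1500 UMIs, and Spc25 counted among the genes, it was 0.286%, 0.441% and 0.517% in FMT mice and 0.509% and 0.352% in saline mice. The means were 0.415 ± 0.118% and 0.430 ± 0.111% (SD, n = 3 FMT and 2 saline mice). Thinning left out 396, 627 and 474 shallower cells of FMT mice and 698 and 343 of saline mice, and without thinning the shares were 0.584%, 0.849% and 0.680% in FMT mice and 0.996% and 0.722% in saline mice. For S phase genes the thinned shares were 0.496 ± 0.158% in FMT mice and 0.534 ± 0.258% in saline mice, also overlapping. Without thinning they were 7.83%, 5.98% and 4.37% in FMT mice and 3.62% and 6.93% in saline mice, again overlapping, and the difference of the means turned to 0.780 percentage points, against -0.0382 with thinning.

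**Figure D4:**
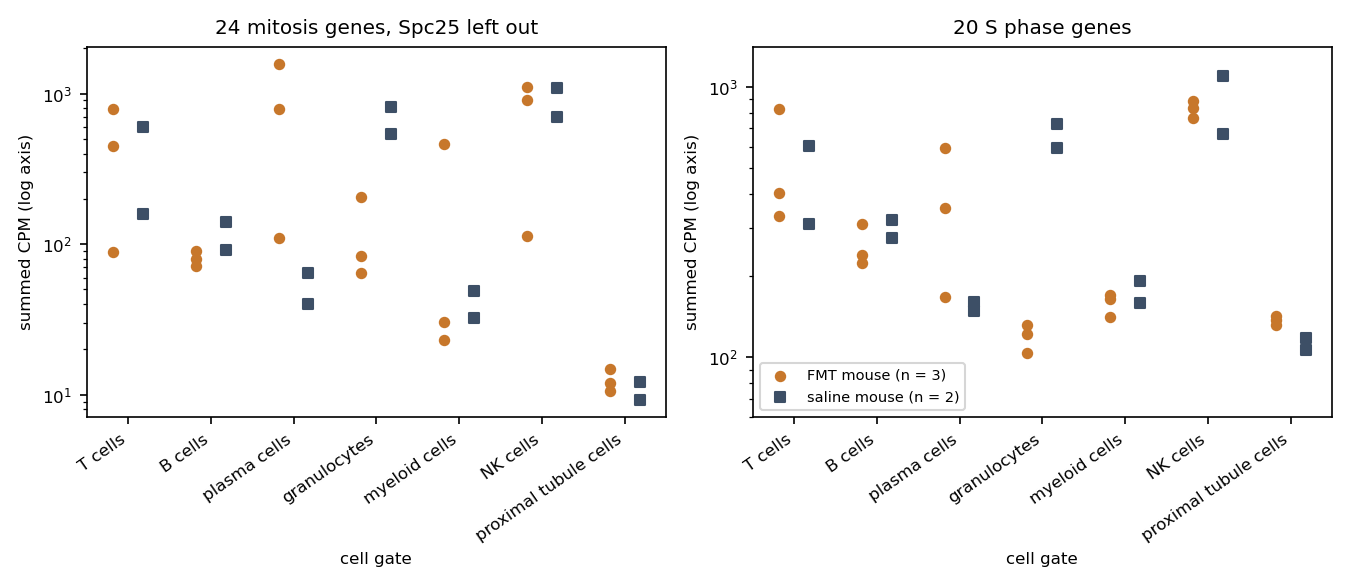
Points are mice (circles FMT, squares saline) and the log axes give the summed CPM of the 24 mitosis genes without Spc25 (left) and of the 20 S phase genes (right) in 7 gates. In granulocytes the saline mice lie at 819 and 539 CPM of mitosis genes and every FMT mouse lies at or under 205 CPM, while the groups overlap in T and NK cells.

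Within proximal tubule cells the summed member level was higher in each FMT mouse, at 335, 358 and 342 CPM, than in each saline mouse, at 265 and 283 CPM. Tyms, Spc25 and Stmn1 made up most of it. Among 11881 genes edgeR called 8 (0.0673%), and 0 of the 22 members that passed the filter, with 5 at an unadjusted p under 0.05 (10.8% of all genes were) and 1, Tyms, called by DESeq2. The adjusted p was 0.187 for Tyms and 0.398 for Spc25, whose groups did not overlap in the values given above. The member with the second smallest p was Cenpf, a kinetochore protein, at 0.871, 1.25 and 0.851 CPM in FMT mice against 0.230 and 0.412 CPM in saline mice, from 62 UMIs in all, and was not called (1.66 ± 0.55, adjusted p = 0.350). Tk1 was at 21.0, 8.03 and 15.7 CPM in FMT mice and at 7.37 and 11.5 CPM in saline mice, and the groups overlapped. The mitosis genes without Spc25 summed to 12.4 ± 2.14 CPM in FMT mice and 10.7 ± 2.14 CPM in saline mice.

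T cells varied more between mice of 1 group than between the groups. Member UMIs summed to 998, 1894 and 478 CPM in FMT mice and to 1411 and 550 CPM in saline mice. FMT mouse 2 and saline mouse 1 were the high libraries and FMT mouse 3 and saline mouse 2 the low ones. Cells with at least 3 mitosis genes numbered 14, 16 and 0 in FMT mice and 14 and 6 in saline mice, the 0 coming from 146 T cells. Mki67 had 27.7, 47.2 and 8.81 CPM in FMT mice and 55.0 and 19.8 CPM in saline mice. Top2a had 23.1, 78.9 and 5.29 CPM in FMT mice and 46.5 and 17.1 CPM in saline mice. The low libraries were the same for both genes and the groups overlapped. Cenpa had 86.6, 73.7 and 33.5 CPM in FMT mice and 80.5 and 28.9 CPM in saline mice. Birc5 varied more, with 49.7, 107 and 7.05 CPM in FMT mice and 73.3 and 7.48 CPM in saline mice. The ubiquitin carrier Ube2c was also low in those libraries, with 61.0, 93.2 and 1.76 CPM in FMT mice and 69.4 and 6.41 CPM in saline mice.

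Of the 8903 genes tested in T cells edgeR called 9 (0.101%) and 0 of 42 members, with 1 member at an unadjusted p under 0.05 (5.59% of all genes were) and 0 called by DESeq2. The members' median log2 difference was 0.36, against -0.01 over all genes, and 35 of the 42 were above 0, against 49.0% of all genes. The smallest p-values belonged to Aurkb, Ccna2 and Aurka, the Aurora kinases and cyclin A2. Aurkb stood at 12.8, 26.9 and 0 CPM in FMT mice and at 8.51 and 3.21 CPM in saline mice (1.56 ± 0.69, adjusted p = 0.865). Ccna2 stood at 12.8, 40.7 and 0 CPM in FMT mice and at 11.8 and 2.14 CPM in saline mice, and Aurka at 7.10, 11.3 and 1.76 CPM in FMT mice and at 5.24 and 1.07 CPM in saline mice (adjusted p = 0.867 for each). All 3 genes overlapped between the groups. Leaving out FMT mouse 2 turned the direction of the summed member level, with a log2 ratio of 0.20 over all mice and -0.41 without it, and leaving out saline mouse 2 gave -0.33. Without saline mouse 1 it was 1.03 and without FMT mouse 3 it was 0.56.

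The less dispersed T cell members were S phase genes read in many cells. Mcm7 had 41.9 ± 5.37 CPM in FMT mice and 42.9 ± 6.97 CPM in saline mice, and Mcm6 had 40.6 ± 3.86 CPM in FMT mice and 37.1 ± 4.06 CPM in saline mice (SD). Rrm1 had 13.1, 27.7 and 10.6 CPM in FMT mice and 17.7 and 13.9 CPM in saline mice, and was highest in FMT mouse 2. The histone genes were again highest in FMT mouse 2, where Hist1h1b had 62.0 CPM and Hist1h2ae 126 CPM, against 22.9 and 96.3 CPM in saline mouse 1. Once cells with mitosis genes were set aside, the S phase genes of T cells summed to 270, 251 and 333 CPM in FMT mice and to 281 and 262 CPM in saline mice, a narrower range than the 309 to 827 CPM with them included.

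Granulocytes were the gate with members called by edgeR between the groups, all lower in FMT mice. Of 3560 genes edgeR called 8 (0.225%), and 5 of them were members: Top2a, Hist1h1b, Rrm2, Hist1h2ae and 2810417H13Rik. Only 15 of the 46 members passed the filter, largely through the saline mice, so this count is a description. Top2a had 0, 0 and 2.05 CPM in FMT mice and 67.6 and 51.9 CPM in saline mice, a log2 difference of -5.24 ± 0.73 (SE, adjusted p = 0.0307). Hist1h2ae had 0, 0 and 6.16 CPM in FMT mice and 69.1 and 74.9 CPM in saline mice (-4.14 ± 0.63, adjusted p = 0.0322). 2810417H13Rik had 0, 6.44 and 10.3 CPM in FMT mice and 117 and 74.9 CPM in saline mice (-3.67 ± 0.57, adjusted p = 0.0334). The groups did not overlap for any of these genes.

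Rrm2 and Hist1h1b had 0 UMIs in the granulocytes of all 3 FMT mice, against 38 and 22 UMIs of Rrm2 and 47 and 20 UMIs of Hist1h1b in the saline mice. Set against a floor of 3 counts over the FMT group (4.06 CPM), Rrm2 was 14.8-fold lower and Hist1h1b 15.8-fold lower in FMT mice. These folds are no bounds: 19 granulocytes with mitosis genes held 98.3% of the Rrm2 UMIs and 95.5% of the Hist1h1b UMIs of the gate. The adjusted p was 0.0322 for each (edgeR). Stmn1, Birc5 and Cdk1 came next and were not called (adjusted p = 0.0640, 0.0665 and 0.0671). Stmn1 had 20.7, 12.9 and 53.4 CPM in FMT mice and 391 and 153 CPM in saline mice. Pcna overlapped between the groups, with 62.1, 45.1 and 28.7 CPM in FMT mice and 57.1 and 86.5 CPM in saline mice.

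These calls rested on few cells. Granulocytes numbered 34, 50 and 121 in FMT mice and 131 and 71 in saline mice, and those with at least 3 mitosis genes numbered 0, 0 and 3 in FMT mice and 14 and 2 in saline mice. The 5 called genes together had 0, 1 and 9 UMIs in FMT mice and 254 and 112 UMIs in saline mice, of which 248 and 108 lay in those cells and 78 and 83 in a single cell of each saline mouse. The cells that had at least 3 mitosis genes were then set aside. The S phase genes of the other granulocytes summed to 103, 122 and 117 CPM in FMT mice and to 55.2 and 73.1 CPM in saline mice. The direction turned without overlap, but few UMIs remained. The cells set aside held 0 of 10, 0 of 19 and 13 of 64 S phase UMIs in FMT mice. In saline mice they held 462 of 483 and 183 of 205, so no opposite shift is read from these sums. Elane and Mpo, proteases and peroxidase of early neutrophil precursors, moved with the calls: Elane stood at 0, 0 and 22.6 CPM in FMT mice and at 1265 and 406 CPM in saline mice, and Mpo at 0 CPM in every FMT mouse and at 808 and 101 CPM in saline mice. Of the 14 and 2 cells with mitosis genes in saline mice, 8 and 1 had an Elane UMI. Camp and Ngp, granule proteins of later precursors, were also lower without overlap, Camp at 10.3, 14695 and 12106 CPM in FMT mice and 30277 and 15620 CPM in saline mice, and Ngp at 176, 11811 and 9987 CPM in FMT mice and 18733 and 13727 CPM in saline mice. The receptor gene Csf3r was higher without overlap, at 1946, 1468 and 1053 CPM in FMT mice and 545 and 873 CPM in saline mice. Other granulocyte markers overlapped: Ltf stood at 0, 2819 and 1733 CPM in FMT mice and at 2172 and 2628 CPM in saline mice. The gate gene S100a8 and S100a9 overlapped too, at log2 ratios of -0.15 and -0.01. FMT mouse 1 stood apart, with little Camp or Ngp and Ltf at 0 CPM. The part of these markers in the result was not tested, and with granulocytes taken by S100a8 alone, an alternative added after values were seen, 8 members were called lower. Without saline mouse 1, or without FMT mouse 1, 0 members were called, and the log2 ratio of the summed member level was -2.26 and -2.43, against -2.59 with all mice.

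**Figure D5:**
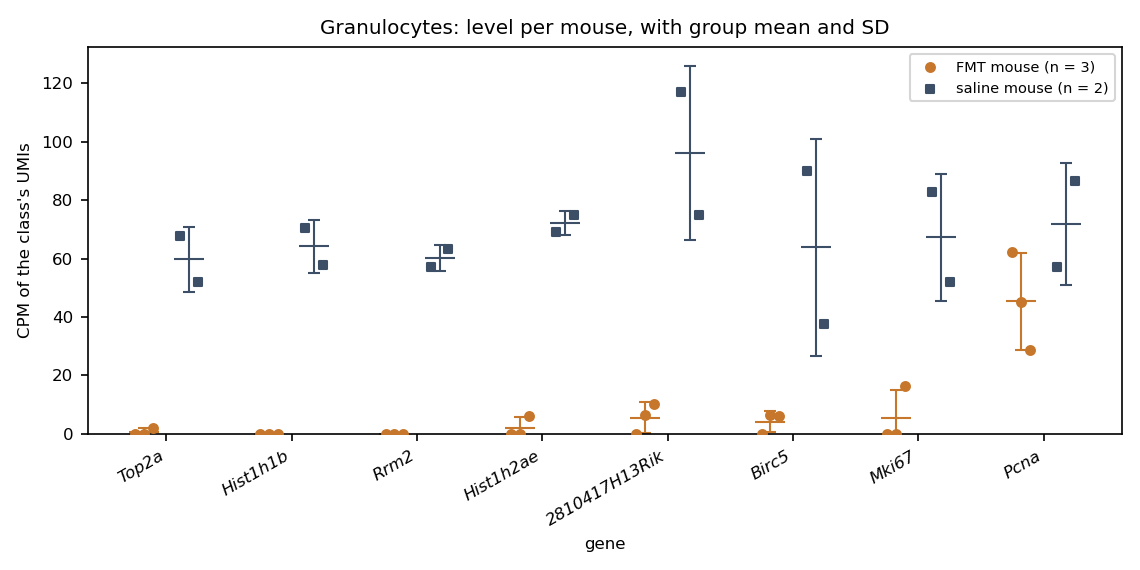
Points are mice (circles FMT, n = 3; squares saline, n = 2) and lines are group means with SD, in CPM of granulocyte UMIs. The 5 called genes on the left lie at or under 10.3 CPM in the FMT mice and at or above 51.9 CPM in the saline mice, while Pcna overlaps.

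The FMT effect in granulocytes was set against that in T cells with the mouse as a block over 7149 genes, of which 9 (0.126%) were called, a test added after values were seen. The difference was called for Top2a (-5.14 ± 1.00, adjusted p = 0.0175), Hist1h1b and Rrm2 (adjusted p = 0.00998 for each). It was not called for 2810417H13Rik (adjusted p = 0.0543) or Hist1h2ae (adjusted p = 0.131). Genes can pass this filter through T cells or the granulocytes of saline mice alone. The test also uses the granulocyte counts that gave the calls above, so it is a description and no separate support. In the like test of proximal tubule cells against T cells, 0.578% of 12635 genes were called, with Hist1h2ae as the member called (-2.95 ± 0.67, adjusted p = 0.0246). It had 5, 1 and 0 UMIs in proximal tubule cells of FMT mice and 22 and 1 UMIs in those of saline mice, 18 of them in a single cell.

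B cells carried few mitosis UMIs in either group. Member UMIs summed to 361, 357 and 405 CPM in FMT mice and to 489 and 495 CPM in saline mice, a log2 ratio of -0.39. In saline mice, 2 and 1 cells with mitosis genes held 101 of 169 and 31 of 108 UMIs of the 24 mitosis genes. They held 58 of 333 and 102 of 378 S phase UMIs. FMT mice had 1, 0 and 0 such cells. With these cells set aside, S phase genes summed to 222, 239 and 309 CPM in FMT mice and to 230 and 238 CPM in saline mice. Of 7994 genes edgeR called 10 (0.125%) and 0 of the 16 members that passed the filter, with 2 at an unadjusted p under 0.05 (5.67% of all genes were) and 1 called by DESeq2. That gene, 2810417H13Rik, had 0 UMIs in B cells of all 3 FMT mice and 13 and 32 UMIs in those of saline mice, and was seen in 4 cells in all, with up to 32 UMIs in a cell (adjusted p = 0.0505, edgeR). Against a floor of 3 counts over the FMT group it was 18.3-fold lower in FMT mice, which is no bound, since its UMIs lay in so few cells. Stmn1 had 42.2, 30.9 and 19.6 CPM in FMT mice and 63.6 and 71.6 CPM in saline mice, without overlap (-1.03 ± 0.26, adjusted p = 0.295). Hist1h1b, the third by p, had 4.86, 5.85 and 15.2 CPM in FMT mice and 23.97 and 5.97 CPM in saline mice.

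In myeloid cells 1 member, Pcna, passed the filter and was not called (-0.59 ± 0.29, adjusted p = 0.696, 0 members at an unadjusted p under 0.05 and 0 by DESeq2, and 18 of 5094 genes or 0.353% called by edgeR). It had 57.0, 54.5 and 41.2 CPM in FMT mice and 82.2 and 64.3 CPM in saline mice. FMT mouse 3 stood apart in this gate: its 56 cells held 6 with mitosis genes and 466 CPM of the 24 mitosis genes, against 30.3 and 22.9 CPM in the other FMT mice and 49.0 and 32.2 CPM in saline mice. With FMT mouse 3 left out, the log2 ratio of the summed member level was -0.23, against 0.65 with it. Plasma and NK cells were too few in some mice for a test. Plasma cells held 786, 1577 and 109 CPM of the 24 mitosis genes in FMT mice, from 25, 24 and 17 cells, against 39.9 and 64.1 CPM in saline mice, from 19 and 24 cells. The groups did not overlap in plasma cells. Cells with at least 3 mitosis genes, 4, 4 and 1 in FMT mice, held 148 of 156, 330 of 346 and 8 of 15 mitosis UMIs there, and 1 cell alone held 137 in FMT mouse 1 and 232 in FMT mouse 2. In saline mice 0 and 2 such cells held 0 of 5 and 6 of 13 mitosis UMIs. The summed CPM of NK cells overlapped, with 902, 113 and 1105 CPM in FMT mice and 1097 and 699 CPM in saline mice. The share of NK cells with at least 3 mitosis genes did not overlap, at 3.57%, 3.33% and 4.55% in FMT mice (2, 1 and 1 cells) and 7.14% and 14.3% in saline mice (2 cells each). Thinned to 1500 UMIs, it was 1.96%, 0% and 5% in FMT mice and 7.14% and 15.4% in saline mice, and the 0 of 28 cells allows a share of up to 10.7%.

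Other cell cycle genes were read from lists of 28 further mitosis genes, 27 further replication genes, 14 regulators of the programme and 14 inhibitors of cyclin-dependent kinases and related brakes. In every gate tested, edgeR called 0 genes of these 4 lists between FMT and saline mice. In granulocytes all 5 further mitosis genes and all 4 further replication genes that passed were below 0, with 3 of each at an unadjusted p under 0.05, while 12.5% of all granulocyte genes were under that p and 46.5% were above 0. Such genes can pass the filter through the saline mice alone, so these counts are a description. The smallest adjusted p was 0.0928 for Dut, the enzyme that breaks down dUTP. In T cells the further replication genes had a median log2 difference of 0.25, with 20 of 22 above 0 and 0 at an unadjusted p under 0.05. Genes of a programme can move together, so these counts are a description as well. Without FMT mouse 2 the summed member level of T cells had a log2 ratio of -0.41. Among the brakes, Cdkn2d, an inhibitor of CDK4 and CDK6, had the smallest p in T cells (0.70 ± 0.18, adjusted p = 0.311) and in proximal tubule cells (0.85 ± 0.18, adjusted p = 0.203).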

How the data were processed

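Single-cell RNA libraries of kidney were read from the deposited UMI counts per gene and barcode, which were used as deposited. The matrices name Cell Ranger 4.0.0, per the file headers, while version 2.1.1 and the genome build mm10 stand in the submitters' processing notes. A total RNA kit and a bulk mRNA kit stand in the labels' extraction text, although the files are droplet matrices. Barcodes needed 200 detected genes and a mitochondrial share below 50%, and 883 doublets scored with Scrublet (scanpy 1.11.5), at an expected rate that grew with the number of cells, were removed.

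Gates needed 1 UMI of Cd3e, Ms4a1, Ncr1 (without Cd3e) or Elane, or, per 1e+04 UMIs, 40 of Jchain, 60 of S100a8, 10 of Lyz2 or 15 of Miox. Cells passing several gates were set aside. UMIs were summed per mouse and gate, and all genes were tested with edgeR 4.0.16 (R 4.3.3; TMM scaling, filterByExpr, quasi-likelihood F test, Benjamini-Hochberg at 0.05). Each mouse needed 20 cells of a gate. Log2 differences are FMT over saline or the first gate named over the second, with SE. Other size factors, no filter, DESeq2 1.42.0, the replicate number as a block, doublets kept, doubled gates and leaving out each mouse were tried. The fit was tested on simulated data for each gate, and recovered changes had the right direction. Changes of 2-fold were called for 35.4% of changed genes in all kept cells, 35.1% in T cells and 44.0% in B cells. The share was 63.3% in proximal tubule cells, 1.14% in granulocytes and 8.65% in myeloid cells. Changes of 4-fold were called for 75.7% in granulocytes to 95.9% in proximal tubule cells, and false calls exceeded the nominal share in most settings.

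Members and lists were chosen with earlier results of these data known. Values per mouse are given for the 6 mitosis and 6 S phase members with the most UMIs, Stmn1, the histone genes, called members and the 3 smallest p-values per gate. Library pairs differed well beyond counting noise. No label says that the replicates came from separate animals, so p-values measure the spread between these 5 libraries, which may be technical.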

Additional observations from a re-analysis of the deposited data

Results flagged for a closer look

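Differences of the FMT effect between 2 cell gates were called for 4 results, each by an interaction test in edgeR with the mouse as a block, added after values were seen. Those of granulocytes use the same counts as the calls within that gate, so they are no separate support. In granulocytes minus T cells, the fitted difference of log2 effects was -9.93 ± 1.58 for Hist1h1b, -9.53 ± 1.58 for Rrm2 and -5.14 ± 1.00 for Top2a (SE). Hist1h1b and Rrm2 had 0 UMIs in granulocytes of FMT mice, so their fitted sizes depend on the prior count and are no bounds. In T cells the effects were 1.16 for Hist1h1b, 1.15 for Rrm2 and 0.45 for Top2a, none of them called. In proximal tubule cells minus T cells, the difference was -2.95 ± 0.67 for Hist1h2ae, where a single cell held 18 of the UMIs in proximal tubule cells. Groups of 2 and 3 mice were too small to look for single outlying mice.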

How the results depend on the processing

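Of values for the comparisons under other settings, 123 were labelled the same, 51 stronger, 13 weaker and 5 moved. For counts of genes called, the same means an equal or similar count, including 0 against 0, and direction was not checked. Of values for single genes, 165 kept their direction and side of the threshold, 15 were stronger, 12 weaker and 1 reversed. Without the low count filter, members called were 6 in T cells, 4 in B cells, 14 in granulocytes, 2 in myeloid cells and 2 in proximal tubule cells, and all genes called were 4 in all kept cells, 149, 143, 133, 134 and 219 in those gates. DESeq2 called 2 members in all kept cells, 1 in B cells and 1 in proximal tubule cells, among 415 genes in all kept cells, 19 in T cells, 19 in B cells, 15 in granulocytes and 80 in proximal tubule cells. RLE size factors called 1 member in B cells and 19 genes in granulocytes. The replicate number as a block, with FMT mouse 3 on its own level, called 7 members in T cells, 1 in B cells and 11 in granulocytes, among 3 genes in all kept cells, 70 in T cells, 28 in B cells, 175 in granulocytes, 36 in myeloid cells and 33 in proximal tubule cells. The libraries share only a number: deviations of same-numbered libraries correlated at -0.144 and -0.118. With doublets kept, 1 gene was called in B cells and 15 in granulocytes. With doubled gates, 5 genes were called in T cells, 2 in B cells, 19 in granulocytes and 9 in myeloid cells. Granulocytes by S100a8 alone, added after seeing the data, gave 8 members and 37 genes.

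Leaving out 1 mouse at a time gave 0 to 9 members called in granulocytes and 0 to 1 in B cells, and 0 in each other gate. The counts without one mouse in granulocytes were 0 without FMT mouse 1, 3 without FMT mouse 2, 8 without FMT mouse 3, 0 without saline mouse 1 and 9 without saline mouse 2. All genes called ranged over 0 to 80 in all kept cells, 4 to 42 in T cells, 9 to 35 in B cells, 0 to 142 in granulocytes, 6 to 156 in myeloid cells and 1 to 36 in proximal tubule cells. The log2 ratio of the summed member level ranged over -0.23 to 0.95 in myeloid cells, -0.41 to 1.03 in T cells, -0.04 to 0.27 in all kept cells, -2.96 to -2.26 in granulocytes, -0.46 to -0.36 in B cells and 0.28 to 0.38 in proximal tubule cells, and Hist1h1b in B cells was -1.69 to 0.26, turning to 0.26 without saline mouse 1. The FMT minus saline difference in the share of cells with mitosis genes was -0.0156 percentage points, and was -0.153 with at least 2 genes, -0.154 without thinning and -0.0942 to 0.0630 without 1 mouse. For S phase genes it was -0.0382, and was -0.256 with at least 2 genes, 0.780 without thinning and -0.221 to 0.144 without 1 mouse. The cause of these changes was not tested. Granulocytes held 96626 to 665663 UMIs a mouse, which limits the precision there.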
